A study of Mus musculus with 4 samples.

Results

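The CpG sites at the promoters of long intergenic noncoding RNA (lincRNA) genes were taken as those within 500 bp of the annotated 5′ end of an autosomal lincRNA gene (GENCODE vM1, mouse build mm9) and more than 2 kb from the 5′ end of any protein-coding gene. Methylation of a site was the number of methylated reads divided by all reads, and a site was kept where each of the 4 libraries had at least 10 reads. This gave 1868 CpG sites of 400195 with that coverage, at 197 of 1232 autosomal lincRNA genes. DNA methylation was measured by reduced representation bisulfite sequencing (RRBS), which cuts DNA with MspI at CCGG and so enriches CpG-rich fragments, comparing wild-type (WT) mouse embryonic stem (ES) cells with a Chr4-cl KO line. In the KO cells a cluster of KRAB zinc finger protein genes on chromosome 4, whose products silence transposable elements, had been deleted with CRISPR/Cas9. The Chr4-cl KO ES cells derive from B6;129-Gt(ROSA)26Sor tm1(cre/ERT)Nat/J mice, so they also carry a Cre/ERT allele at the ROSA26 locus, and KO and WT lines were picked as individual clones. Each genotype was grown in ES cell medium with 20% FCS and LIF (serum) or for 1 week in 2i medium with Vitamin C. Every group is 1 library, so no difference between genotypes or media has a replicate check, and the site tests below compare 2 libraries, not 2 conditions.

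LincRNAs are capped and usually spliced transcripts without a long reading frame, and they include the hosts of small nucleolar RNAs (snoRNAs), imprinted antisense transcripts and nuclear regulators. Their promoters, like those of protein-coding genes, are often CpG islands, where most cytosines stay unmethylated, while CpG-poor promoters are commonly methylated in ES cells grown in serum. The 2i inhibitors and Vitamin C, a cofactor of TET enzymes, lower methylation over most of the genome, with imprinted control regions among the places known to hold it longer. An imprinted control region is methylated on the allele of one parent only.

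Promoters on which the results turn are shown as the gene's strand of mm9, with the CG of every measured site in capitals. The Airn window, whose methylation differed most between the genotypes, is chr17:12934308-12934607 on the plus strand, in an intron of Igf2r. The window of 1810058I24Rik, chr6:35202504-35202803 on the plus strand, had the next largest difference. Nespas, chr2:174120787-174121086 on the minus strand within Gnas, is shown as the other imprinted promoter. The window of 1190007F08Rik, chr4:153399927-153400226 on the minus strand, holds sites that differed in opposite directions in the 2 media. Gm16725, chr8:18677906-18678205 on the minus strand within Mcph1, is shown as the promoter with the highest methylation in WT cells in serum, and Snhg7, chr2:26495548-26495847 on the minus strand, as an unmethylated CpG-rich promoter.
Airn: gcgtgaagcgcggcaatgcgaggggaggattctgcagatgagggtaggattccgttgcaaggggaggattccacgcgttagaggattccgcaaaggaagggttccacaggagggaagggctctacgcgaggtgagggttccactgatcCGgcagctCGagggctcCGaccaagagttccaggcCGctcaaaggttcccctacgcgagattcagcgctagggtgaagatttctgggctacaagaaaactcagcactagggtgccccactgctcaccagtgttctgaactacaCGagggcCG
1810058I24Rik: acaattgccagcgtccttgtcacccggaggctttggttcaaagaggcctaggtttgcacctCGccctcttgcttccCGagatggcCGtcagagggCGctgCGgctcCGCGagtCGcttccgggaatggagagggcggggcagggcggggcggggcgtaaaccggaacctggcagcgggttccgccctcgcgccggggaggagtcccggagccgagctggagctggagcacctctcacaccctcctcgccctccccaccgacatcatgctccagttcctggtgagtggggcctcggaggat
Nespas: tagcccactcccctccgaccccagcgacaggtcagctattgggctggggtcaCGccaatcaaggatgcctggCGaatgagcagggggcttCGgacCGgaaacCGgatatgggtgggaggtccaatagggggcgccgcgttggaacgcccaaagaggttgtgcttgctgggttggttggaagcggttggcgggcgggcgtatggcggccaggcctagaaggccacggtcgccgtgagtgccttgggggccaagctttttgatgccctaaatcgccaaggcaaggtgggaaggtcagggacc
1190007F08Rik: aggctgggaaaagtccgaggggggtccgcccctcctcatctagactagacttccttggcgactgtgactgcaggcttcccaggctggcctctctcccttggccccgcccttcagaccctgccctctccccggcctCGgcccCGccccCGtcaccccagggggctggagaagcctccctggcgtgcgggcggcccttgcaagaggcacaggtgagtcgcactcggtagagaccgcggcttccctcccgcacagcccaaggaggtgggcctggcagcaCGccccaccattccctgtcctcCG
Gm16725: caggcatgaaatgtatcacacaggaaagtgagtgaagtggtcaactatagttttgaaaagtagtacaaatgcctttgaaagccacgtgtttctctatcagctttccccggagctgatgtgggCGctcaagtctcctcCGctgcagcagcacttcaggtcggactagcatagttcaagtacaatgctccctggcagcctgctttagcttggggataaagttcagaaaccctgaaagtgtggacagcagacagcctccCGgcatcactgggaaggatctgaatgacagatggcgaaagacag
Snhg7: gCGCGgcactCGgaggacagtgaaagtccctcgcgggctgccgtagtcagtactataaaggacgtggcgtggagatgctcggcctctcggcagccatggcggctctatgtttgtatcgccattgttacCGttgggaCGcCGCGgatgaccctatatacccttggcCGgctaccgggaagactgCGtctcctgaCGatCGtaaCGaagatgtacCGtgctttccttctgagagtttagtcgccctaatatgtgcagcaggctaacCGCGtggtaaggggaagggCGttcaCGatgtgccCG
The number of CpG dinucleotides differs widely among these 300-base windows. Snhg7 has 29, of which 18 were measured, 1810058I24Rik has 26, Nespas 20, Airn 19, 1190007F08Rik 18 and Gm16725 7. RRBS sequences only fragments that begin at a CCGG, so many of these CpGs were not measured.

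The measured promoters are a CpG-rich share of lincRNA promoters. Of 649 lincRNA genes whose 5′ end is more than 2 kb from protein-coding 5′ ends, 194 had a measured site, and 3 further genes had one because their window reaches beyond the 2 kb. The ratio of observed to expected CpG in the 1 kb around the 5′ end had a median of 0.593 in the 194 genes and 0.260 in the 455 genes without a measured site. All 194 windows held a CCGG, as did 65.7% of the 455. A gene had a median of 8 measured sites and at most 56, 8 genes shared all their sites with another gene, and 163 genes had 3 or more sites, which gave 159 different promoters for comparisons by promoter. The annotation itself is not settled for all of them. RefSeq (GRCm38.p6) matched 134 of the 197 symbols and lists 114 as lncRNA but 13 as protein-coding, among them Lactbl1, 1810058I24Rik and 1190007F08Rik (Smim1), and 22 genes had the 5′ end of a protein-coding transcript within 500 bp. The 5′ end of 76 genes lay within the body of a protein-coding gene.

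Summed over CpG sites, the libraries held between 42684672 reads (KO in 2i + Vitamin C) and 90649194 reads (WT in 2i + Vitamin C). At the lincRNA promoter sites the median coverage was 60 reads in WT serum, 89 in KO serum, 100 in WT 2i + Vitamin C and 47 in KO 2i + Vitamin C. Where a pair of values is given for the genotypes in a medium, WT comes first. Between the outermost matches of the 2 guide RNAs on chromosome 4, WT cells had 85282 and 105120 reads and KO cells 820 and 1467 reads, in serum and in 2i + Vitamin C. None of the lincRNA promoter sites lies in that interval, which spans 5 lincRNA 5′ ends. The deposited files of WT in serum and of KO in 2i + Vitamin C each hold 2 tables one after the other, those of the other 2 libraries hold 1, and all lincRNA promoter sites come from the first table. Neighbouring sites are read by the same fragments, so the sites of a promoter are not independent measurements.

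Most lincRNA promoter sites were nearly free of methylation in all 4 libraries. Mean methylation over the 1868 sites was 4.97% in WT serum and 6.15% in KO serum, and 3.08% and 2.04% in 2i + Vitamin C. The share of sites under 20% was 94.7% and 93.2% in serum, then 97.3% and 98.2% in 2i + Vitamin C. In WT cells in serum, 76 sites lay between 20 and 80% and 23 sites above 80%, and in 2i + Vitamin C no site was above 80% in either genotype. At 151514 sites within the same distance of protein-coding 5′ ends the means were lower, at 2.62% and 3.96% in serum, then 2.44% and 1.45% in 2i + Vitamin C. At 68475 distal intergenic sites they were 61.1% and 65.3% in serum, then 32.9% and 30.5% in 2i + Vitamin C. By distance from the 5′ end, the 10 bins of 100 bp had means between 3.20% and 6.39% in WT cells in serum. By promoter, 145 of the 159 were under 20% in WT cells in serum, 11 lay between 20 and 80% and 3 were above 80%. The 34 promoters with fewer than 3 sites, left out of this count, had means of 31.5% and 33.9% in serum. With all 193 promoters weighted equally, the means were 11.1% and 12.5% in serum, then 5.34% and 4.05% in 2i + Vitamin C.

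CpG-poor promoters were the most methylated. With an observed to expected CpG ratio under 0.48, the 33 promoters had a mean of 16.5% in WT cells in serum, and 8 of them reached 20% or more. The 88 promoters with a ratio from 0.48 to 0.75 had a mean of 5.07%, with 6 at 20% or more. None of the 38 promoters with a ratio over 0.75 reached 20% in any library, and their mean was 2.06% in WT cells in serum. The means of the 3 classes in 2i + Vitamin C were 6.94%, 3.24% and 2.25% in WT cells and 4.30%, 2.14% and 1.58% in KO cells. The order of the class means was the same in all 4 libraries. The medians were lower than the means, at 5.48%, 1.82% and 1.41% in WT cells in serum. In WT cells in 2i + Vitamin C the medians were 2.89%, 1.91% and 1.94%, so the order of the last 2 classes was reversed there.

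**Figure D1:**
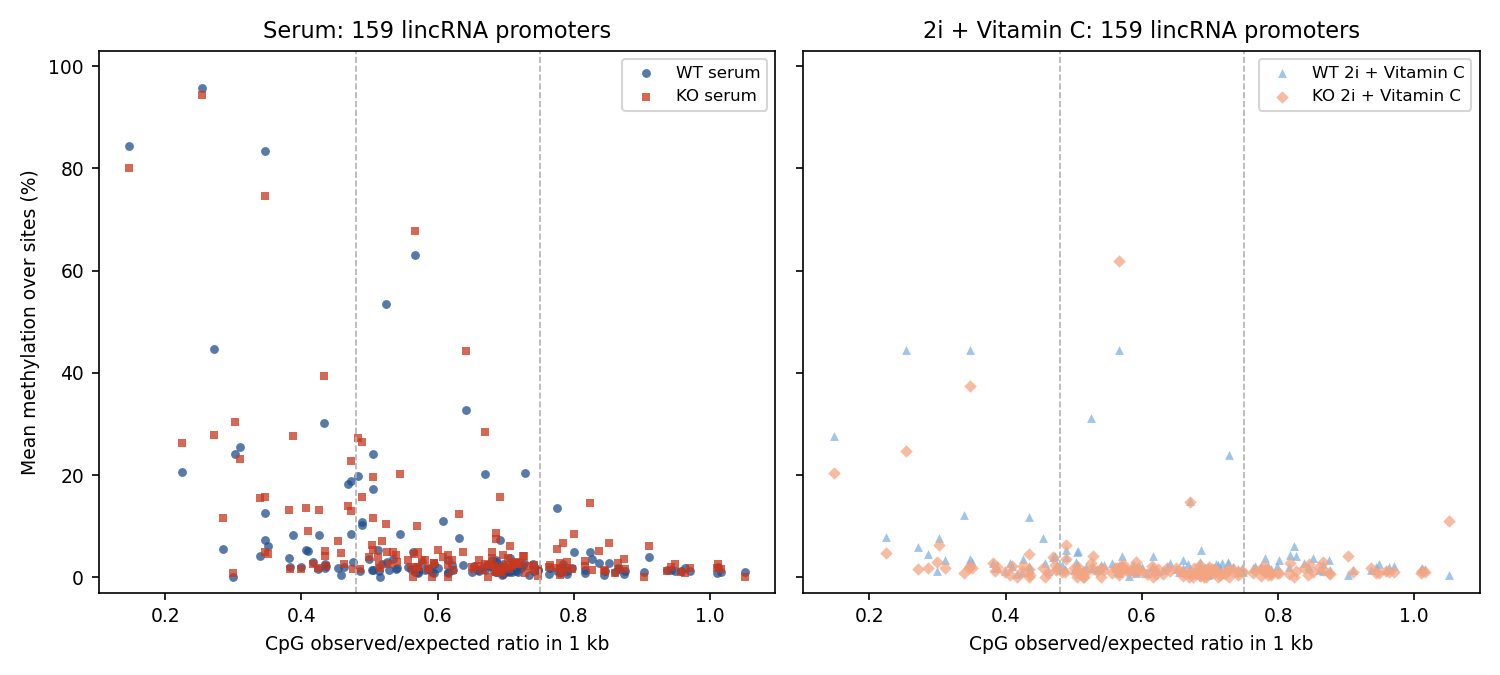
Mean methylation over the sites of each of 159 lincRNA promoters (vertical axis, %) against the observed to expected CpG ratio of the surrounding 1 kb (horizontal axis), in serum (left) and in 2i + Vitamin C (right), with WT in blue and KO in red. Dashed lines mark ratios of 0.48 and 0.75, and no promoter to the right of 0.75 reaches 20%.

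On the lists of lincRNAs with known roles, measured promoters outside the imprinted genes were at 11.1% or less in all 4 libraries. Low methylation was not particular to them, since 145 of 159 lincRNA promoters were under 20% in WT cells in serum. Of the snoRNA hosts, 4 of 6 annotated genes had measured sites (Snhg4, Snhg5, Snhg7 and Snhg12). Over its 20 sites Snhg7 was at 0.485% in WT serum and 2.16% in KO serum and at 2.13% and 1.74% in 2i + Vitamin C. Over 9 sites Snhg4 lay between 1.05% and 2.68%, and Snhg12, with 2 sites, between 0.0% and 6.25%. The 4 sites of Snhg5 averaged 1.16% and 0.0% in serum, then 0.568% for WT and 10.96% for KO in 2i + Vitamin C. Among nuclear and abundant lincRNAs, 3 of 5 had measured sites. The 12 sites of Pvt1, the neighbour of Myc, lay between 0.858% and 2.54% in the 4 libraries. The 14 sites of 1700020I14Rik (Oip5os1, also known as Cyrano) lay between 0.960% and 1.99%, and the 13 sites of Dleu2, the host gene of miR-15a and miR-16-1, between 0.862% and 4.47%. Among developmental regulators, 2 of 5 had measured sites. Six3os1, transcribed opposite Six3, a regulator of eye and forebrain formation, was between 0.357% and 3.37%. Gm11549, which RefSeq lists as the protein-coding gene Smim43, was at 11.1% in WT serum and 4.02% in KO serum and at 0.826% and 0.777% in 2i + Vitamin C. In WT serum its sites 221 to 298 bp after the 5′ end had only 12 or 13 reads each. The sites at 412, 415 and 500 bp had 64 reads each there. At these, serum methylation was lower in WT (1.56% to 4.69%) than in KO cells (4.76% to 8.43%). No miRNA host on the list was annotated as an autosomal lincRNA gene, and neither of 2 pluripotency lincRNAs had a measured site. At 7 of the 92 sites of these lists, imprinted genes left aside, at least 1 comparison between genotypes or media had an adjusted p below 0.05. They lie in Dleu2, Pvt1, Snhg7 and Snhg5. The share of all sites under this rule was not counted, so 7 of 92 cannot be called many or few. The site of Dleu2 411 bp before its 5′ end was at 1.63% in WT serum and 18.6% in KO serum (adjusted p = 4.04e-28, Fisher's exact test). At 1 site the difference also reached 20 percentage points. This site of Snhg5, 175 bp before its 5′ end, went from 0% of 17 reads to 40% of 10 reads between serum and 2i + Vitamin C in KO cells. A count of 0 of 17 reads allows up to 17.6%.

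Between serum and 2i + Vitamin C, most lincRNA promoter sites at 20% or more in WT cells in serum lost methylation in WT cells. A site was called lost or gained where the methylated shares of 2 libraries differed by at least 20 percentage points with an adjusted p under 0.05 (two-sided Fisher's exact test on the reads, Benjamini-Hochberg adjusted over all 400195 sites). In WT cells 65 of 1868 sites (3.48%) at 28 genes were lost, against 26.0% of all sites, and 2 (0.107%) were gained, against 0.149%. In KO cells 89 sites (4.76%) at 45 genes were lost, against 29.4% of all sites, and 1 (0.0535%) was gained, against 0.029%. A site under 20% in serum cannot fall by 20 points. In WT cells in serum 94.7% of lincRNA promoter sites were under 20%, against 66.3% of all sites. In KO cells in serum these shares were 93.2% and 63.95%. The part of the starting level in the smaller shares of lost sites was not tested. Of sites between 20 and 80% in WT cells in serum, 60.5% at lincRNA promoters and 76.8% of all were lost in WT cells, and of those above 80%, 82.6% and 77.1%. The sites lost in both genotypes numbered 46, which is 70.8% of those lost in WT and 51.7% of those lost in KO cells. The same overlap over all sites was not counted, so it is not shown to be particular to lincRNA promoters. The mean difference was -1.89 percentage points in WT (95% counting interval -2.05 to -1.74) and -4.11 points in KO cells (-4.27 to -3.95). Counting intervals here and below cover the sampling of reads only and take each site's reads as separate, so they are too narrow where a fragment covers several sites. With each promoter given the same weight, the differences were -5.75 and -8.41 points, and with reads pooled over sites they were -0.527 and -2.81 points. The 34 promoters with fewer than 3 sites had a mean of 31.5% in WT cells in serum, against 11.1% over all 193 promoters. Lost sites in the WT comparison numbered 39 with at least 20 reads required and 32 with reads thinned to the smallest coverage of each site.

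Sites that were methylated in serum kept less than 50% of it on average in 2i + Vitamin C, as at protein-coding promoters. The 76 sites between 20 and 80% in WT cells in serum had a mean of 38.9% there and of 12.9% in WT cells in 2i + Vitamin C, which is 33.2% of the serum level. The same measure was 26.7% at protein-coding promoters and 31.7% at distal intergenic sites. Airn and Nespas hold 10 of the 76 sites, and the other 66 went from 36.4% to 9.39%, which is 25.8% of the serum level. The 23 sites above 80% went from 90.1% to 44.0%, keeping 48.9% of the serum level, against 43.8% at protein-coding promoters and 60.0% at distal intergenic sites. Since the classes were set by WT in serum, the values of that library describe the classes only. In KO cells in 2i + Vitamin C the 2 classes were at 8.09% and 38.2%.

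**Figure D2:**
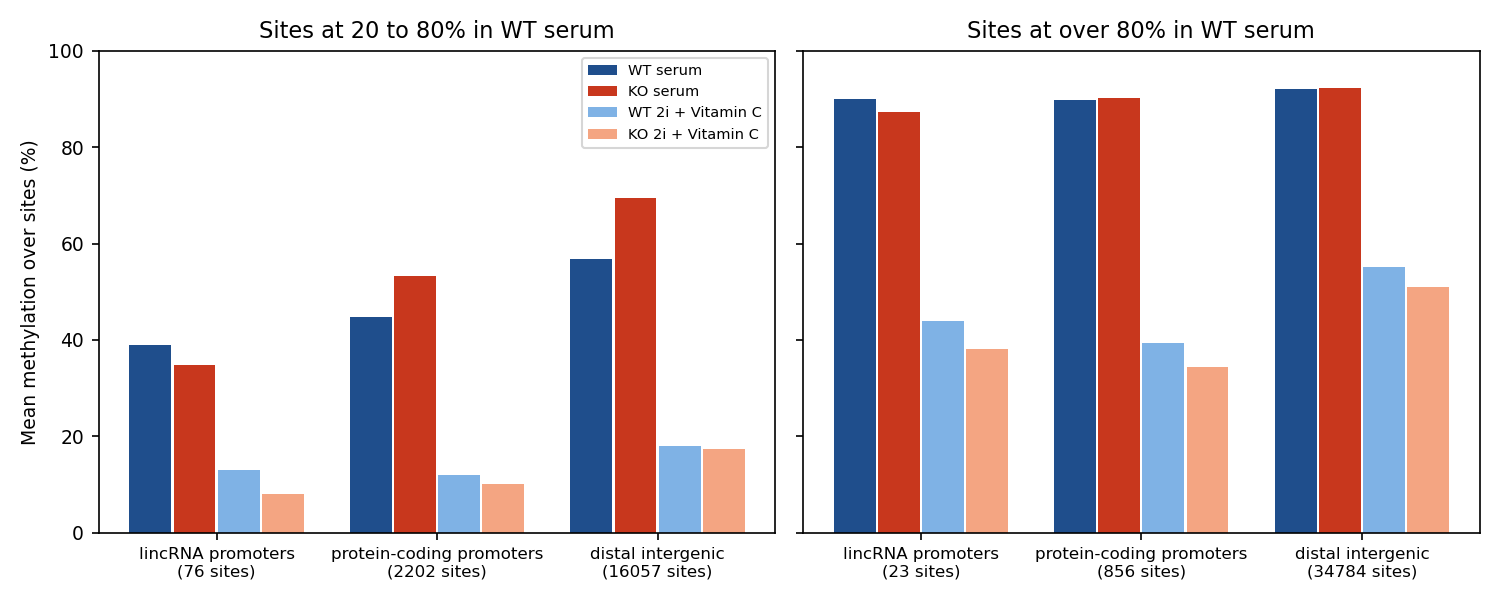
Mean methylation over sites (vertical axis, %) in the 4 libraries, for sites between 20 and 80% (left) and above 80% (right) in WT cells in serum, at lincRNA promoters, protein-coding promoters and distal intergenic DNA. The bars of both 2i + Vitamin C libraries stand well under those of serum in each kind of region.

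By promoter, 8 of 159 (5.03%) were at least 20 points lower in 2i + Vitamin C than in serum in WT cells, against 5.35% of 10788 gene promoters with 3 or more sites, and none was as much higher. In KO cells 13 promoters (8.18%) were lower by that much, against 6.95% of all gene promoters. Gm16725, a transcript within Mcph1, was at 95.8% in WT serum and 94.4% in KO serum and at 44.5% and 24.8% in 2i + Vitamin C. Lactbl1, which RefSeq lists as a protein-coding gene, was at 84.3% and 80.1% in serum and at 27.6% and 20.4% in 2i + Vitamin C. Gm11748, within Engase, was at 83.4% and 74.5% in serum and at 44.6% and 37.5% in 2i + Vitamin C. Of the 159, these 3 promoters had the highest methylation in serum. All 3 kept 20% or more in 2i + Vitamin C in both genotypes. In KO cells in 2i + Vitamin C, Lactbl1 had 10 to 48 reads per site, with 0.0% at the site with 10 reads. Gm16725 had 17 to 20 reads per site there, with 15.0% at its lowest site. Among promoters of intermediate methylation the levels reached differed. Nespas and Airn, described below, kept 44.5% and 31.2% in WT cells. Gm16206 went from 44.7% to 5.93% in WT and from 27.9% to 1.72% in KO cells. D130017N08Rik went from 32.7% to 2.75% and from 44.4% to 1.19%, the last value resting on 12 reads per site. The promoter of 5033428I22Rik (Hdnr), which lies 11135 bp from the 5′ end of the heart regulator Hand2, went from 30.3% to 11.8% and from 39.4% to 4.54%. Of 19 promoters with a mean of 20% or more in any library, 18 were lower in 2i + Vitamin C than in serum in WT cells and 19 in KO cells. The exception in WT cells was 1810058I24Rik, at 20.4% in serum and 24% in 2i + Vitamin C. These 19 were chosen by the same means. In 2i + Vitamin C only 6 were at 20% or more in WT and 4 in KO cells, so a fall is largely built in. Over all 159 promoters, 86 in WT cells and 137 in KO cells were lower in 2i + Vitamin C than in serum.

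KO and WT cells differed at few lincRNA promoter sites. In serum 7 sites (0.375%) were lost in KO cells, against 0.115% of all sites, and 11 sites (0.589%) were gained, against 1.79%. In 2i + Vitamin C 6 sites (0.321%) were lost, against 0.405% of all sites, and 0 were gained, against 0.0917%. Without the adjusted p, 18 sites were at least 20 points lower and 4 at least 20 points higher in KO cells in 2i + Vitamin C. The share of all sites past that size without the test was not counted, and KO cells in 2i + Vitamin C had the lowest coverage. Of the lost sites, 5 of 7 in serum and 4 of 6 in 2i + Vitamin C were in the Airn promoter. Without Airn, 2 sites were lost in each medium, and with a window of 250 bp, which leaves out the Airn sites, 2 and 1. With thinned reads 2 and 3 sites were lost. At least 20 points lower in KO cells were 1 promoter in serum (0.629%), against 0.102% of gene promoters, and 2 promoters in 2i + Vitamin C (1.26%), against 0.195%. None of the 159 was at least 20 points higher in KO cells in either medium.

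**Figure D3:**
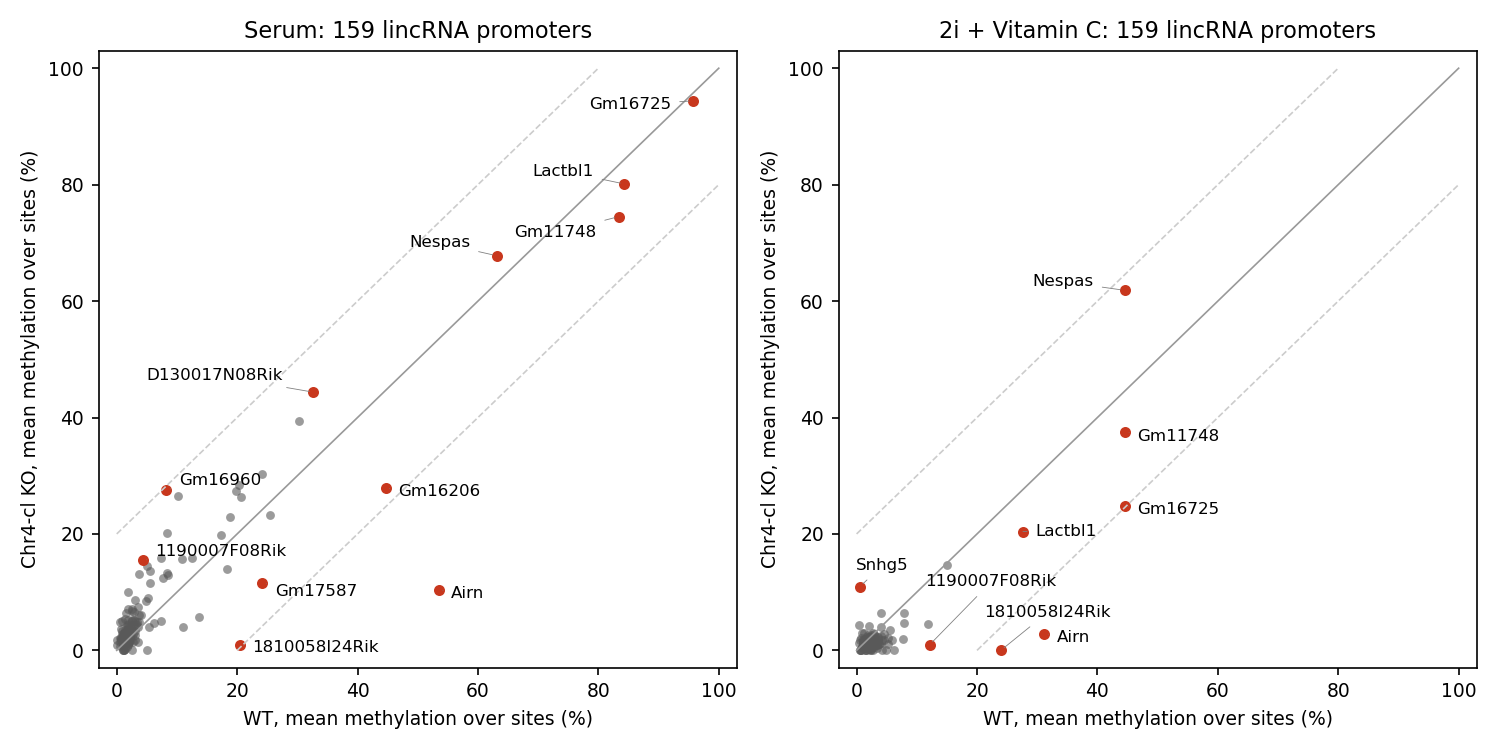
Mean methylation over the sites of each of 159 lincRNA promoters in WT cells (horizontal axis, %) and in KO cells (vertical axis, %), in serum (left) and in 2i + Vitamin C (right). The solid line marks equal values, the dashed lines a difference of 20 points, and red points are named. Airn lies beyond the lower dashed line in both media, and most points crowd near 0.

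Airn methylation was much lower in KO than in WT cells in both media. Airn is an imprinted lincRNA transcribed from the paternal allele, and the maternal copy of its promoter is normally methylated. Its 6 measured sites lie 279 to 429 bp after the 5′ end. Their mean was 53.5% in WT serum and 10.4% in KO serum, and 31.2% and 2.88% in 2i + Vitamin C. All 6 sites were lower in KO cells in both media, between 51.0% and 58.8% in WT against 6.48% to 12.5% in KO cells in serum, and between 24% and 42.1% against 0.0% to 5.71% in 2i + Vitamin C. Coverage of the Airn sites in serum had a median of 102.5 reads for WT and 108.5 for KO. The lowest adjusted p of a single site in serum was that of position 12934599 on chromosome 17, with a difference of -44.5 points (adjusted p = 4.63e-11, Fisher's exact test). Beyond the window, 7 further sites 925 to 1056 bp after the 5′ end had means of 42.6% in WT serum and 5.90% in KO serum and of 30.8% and 1.63% in 2i + Vitamin C. The low methylation of KO cells thus extended over all 13 measured sites within 3000 bp.

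Nespas, the other imprinted lincRNA with measured sites, was not lower in KO cells. It is antisense to Nesp at the Gnas locus and, like Airn, is expressed from the paternal allele. The mean of its 5 sites, 46 to 96 bp before the 5′ end, was 63.1% in WT serum and 67.8% in KO serum. The corresponding values in 2i + Vitamin C were 44.5% and 61.9%, the latter the highest of the 159 promoters in that library. No site of Nespas was called lost or gained in any comparison, and none had an adjusted p under 0.05 between the genotypes. Between the media, 4 of the 5 had one in WT cells, where their differences were -18.1 to -12.95 points, short of 20 points. The site nearest the 5′ end had only 10 reads in KO cells in 2i + Vitamin C. At 11 sites 2583 to 2844 bp before the 5′ end the means were 69.0% and 71.4% in serum, then 43.9% and 52.6% in 2i + Vitamin C. The other 3 imprinted genes annotated as autosomal lincRNAs, Meg3, Rian and Mirg, had no measured site.

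The 8 sites of 1810058I24Rik were methylated in WT cells and close to 0 in KO cells. RefSeq lists this gene as protein-coding. Its mean was 20.4% in WT serum and 0.852% in KO serum, and 24% and 0.0% in 2i + Vitamin C. All 8 sites were lower in KO cells in both media. The WT serum value rests on 12 or 13 reads per site, and 1 site was called lost in serum, at 38.5% of 13 reads in WT and 0% of 44 reads in KO cells (adjusted p = 1.02e-02, Fisher's exact test). No site was called in 2i + Vitamin C, where each site had 0 of 25 reads in KO cells, which allows up to 12%. At 5 sites 533 to 762 bp before the 5′ end the means were 39.5% in WT serum and 7.28% in KO serum and 17.3% and 0.0% in 2i + Vitamin C. The genotypes were closer at 3 sites 2431 to 2545 bp after the 5′ end, where serum gave 44.1% for WT and 35.5% for KO cells, and 2i + Vitamin C gave 11.3% and 3.98%. Over all lincRNA promoters, 9 sites (0.482%) were at 10% or more in both WT libraries and under 10% in both KO libraries, against 0.0535% of all sites. These were the 8 sites of 1810058I24Rik and 1 site of Airn.

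**Figure D4:**
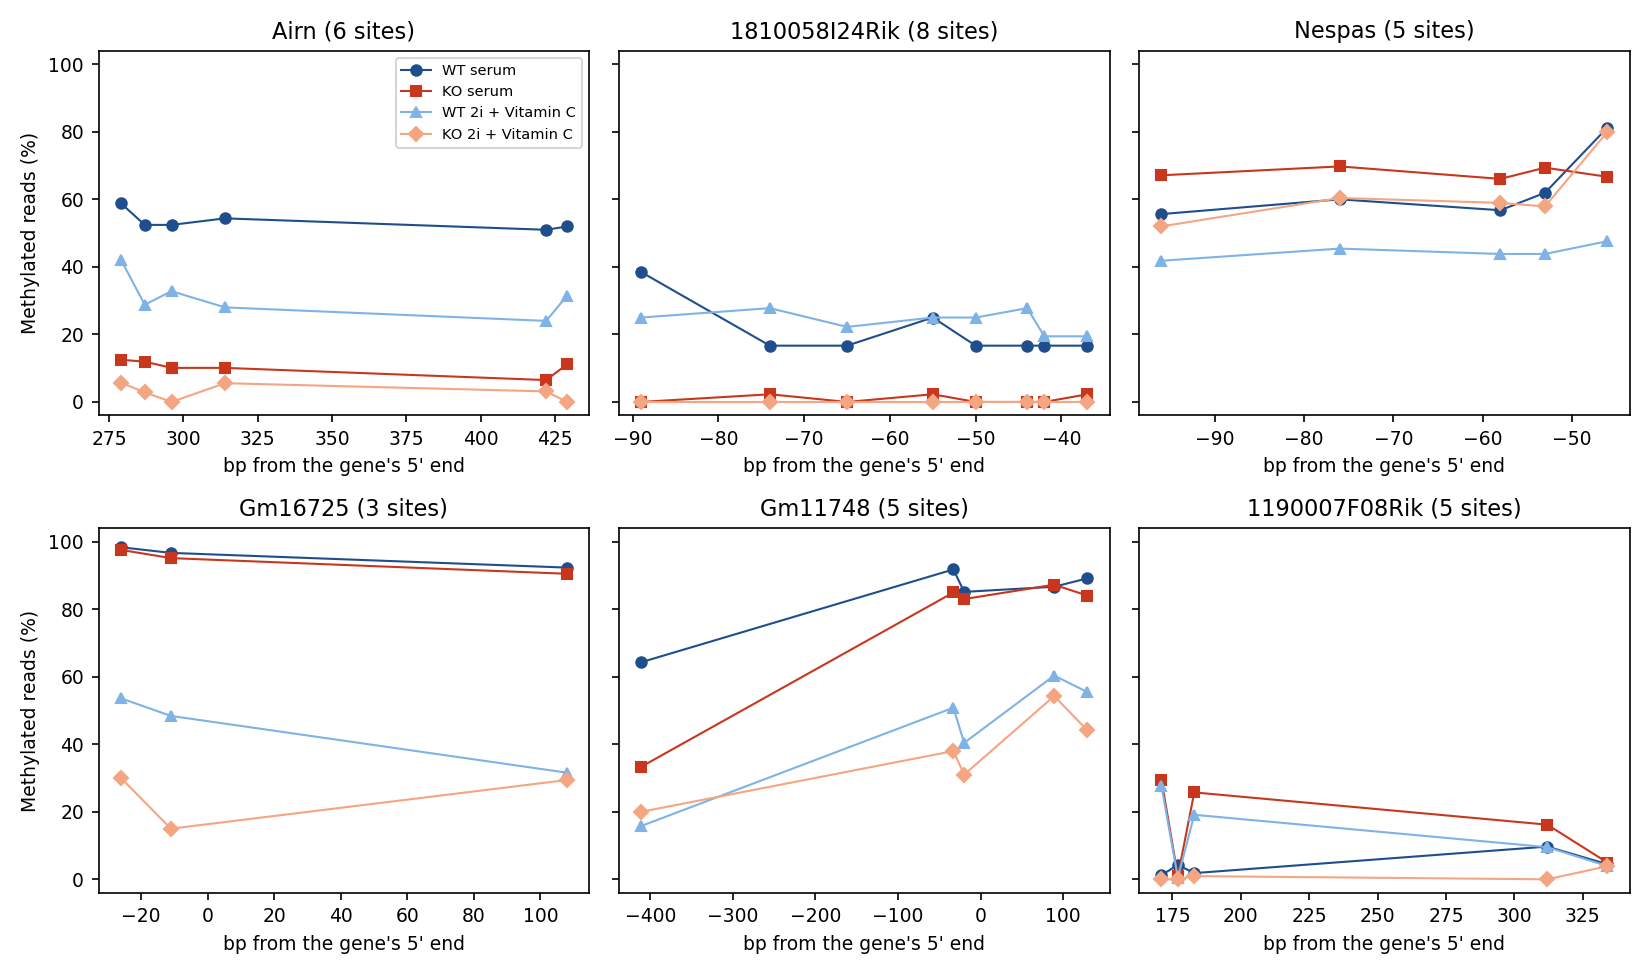
Methylated reads (vertical axis, %) at each measured site of 6 promoters against its distance from the gene's 5′ end (horizontal axis, bp, on its own scale in each panel), with 1 line per library. Both KO lines run under both WT lines at Airn and 1810058I24Rik, and at 1190007F08Rik the KO serum and WT 2i + Vitamin C lines rise together at some sites.

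Other promoters differed less between the genotypes, and few of their sites were called lost or gained. Gm16206 was 16.8 points lower in KO cells in serum, on 14 to 47 reads per site in WT and 15 to 23 in KO cells. Gm17587 was at 24.2% in WT serum and 11.6% in KO serum. Gm16725 was 19.7 points lower in KO cells in 2i + Vitamin C, with 17 to 20 reads per site there. Higher in KO cells in serum were Gm16960 (8.22% in WT, 27.6% in KO), Gm17643 (10.2% and 26.4%), Gm16761 (8.41% and 20.2%) and D130017N08Rik (32.7% and 44.4%). The same promoters in 2i + Vitamin C were at 6.34% or less in both genotypes. Besides Nespas, the promoters with the highest difference in 2i + Vitamin C were Snhg5 (10.4 points), 2700016F22Rik (3.84 points), Gm17643 (2.37 points) and 4932430I15Rik (2.24 points). That of Snhg5 came from the 1 site with 10 reads.

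Over all 1868 sites, methylation in KO cells was 1.17 points higher than in WT cells in serum (95% counting interval 0.990 to 1.35) and 1.05 points lower in 2i + Vitamin C (difference -1.05, interval -1.18 to -0.911). Protein-coding promoters differed by 1.34 and -0.992 points, in the same directions. So did distal intergenic sites, by 4.15 and -2.46 points, and all 400195 sites, by 3.12 and -1.74 points. The level of the mostly unmethylated lincRNA promoter sites also differed between the libraries. The median site was at 1.28% in WT serum and 2.35% in KO serum and at 1.59% and 0% in 2i + Vitamin C. The share of sites with no methylated read was 34.9% and 22.5% in serum, then 27.4% and 55.4% in 2i + Vitamin C, where KO cells had the lowest coverage. With reads thinned to the smallest coverage of each site, KO minus WT was 1.33 points in serum and -1.09 points in 2i + Vitamin C. Beyond that, the part of coverage and of the library's level at unmethylated sites in the KO minus WT differences was not tested.

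A set of sites was methylated in KO serum and WT 2i + Vitamin C but not in the other 2 libraries. There were 15 such sites (0.803%) at 13 genes, under 10% in WT serum and KO 2i + Vitamin C and at 10% or more in the other pair, against 0.596% of all sites. The reverse, under 10% in KO serum and WT 2i + Vitamin C only, was found at 0 lincRNA promoter sites and at 0.0452% of all sites. The 15 sites were chosen by these values, which are given as a description. Their median was 1.63% in WT serum, 19.3% in KO serum, 14.4% in WT 2i + Vitamin C and 0.909% in KO 2i + Vitamin C. The deepest, 23 bp before the 5′ end of Gm17580, was at 2.39% of 796 reads, 27.5% of 792 reads, 18.5% of 627 reads and 1.02% of 686 reads in that order. A site 171 bp after the 5′ end of 1190007F08Rik was at 1.23%, 29.5%, 27.7% and 0.0%, while the next site, 6 bp further on, was at 4.27%, 0.971%, 0.439% and 0.0%. A site of Dleu2, 411 bp before its 5′ end, was at 1.63%, 18.6%, 14.4% and 0.0%. The neighbouring lincRNA promoter sites within 50 bp had medians of 2.03%, 3.55%, 2.39% and 0.879%, so the neighbours of most of the 15 were low. The exceptions were 1190007F08Rik, where 2 of the 15 lie near each other, 171 and 183 bp after the 5′ end, and neighbours averaged up to 15.3% in KO serum, and Gpr137b-ps, with neighbours at 11.6%. Of the 11 sites gained in KO cells in serum, 6 (54.5%) are among the 15 (40.0%). Both sets were chosen by the values of WT serum and KO serum, so some overlap is built in. The 2 libraries in which the 15 sites were under 10% are those whose deposited files hold 2 tables. The part of this in the pattern was not tested.

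**Figure D5:**
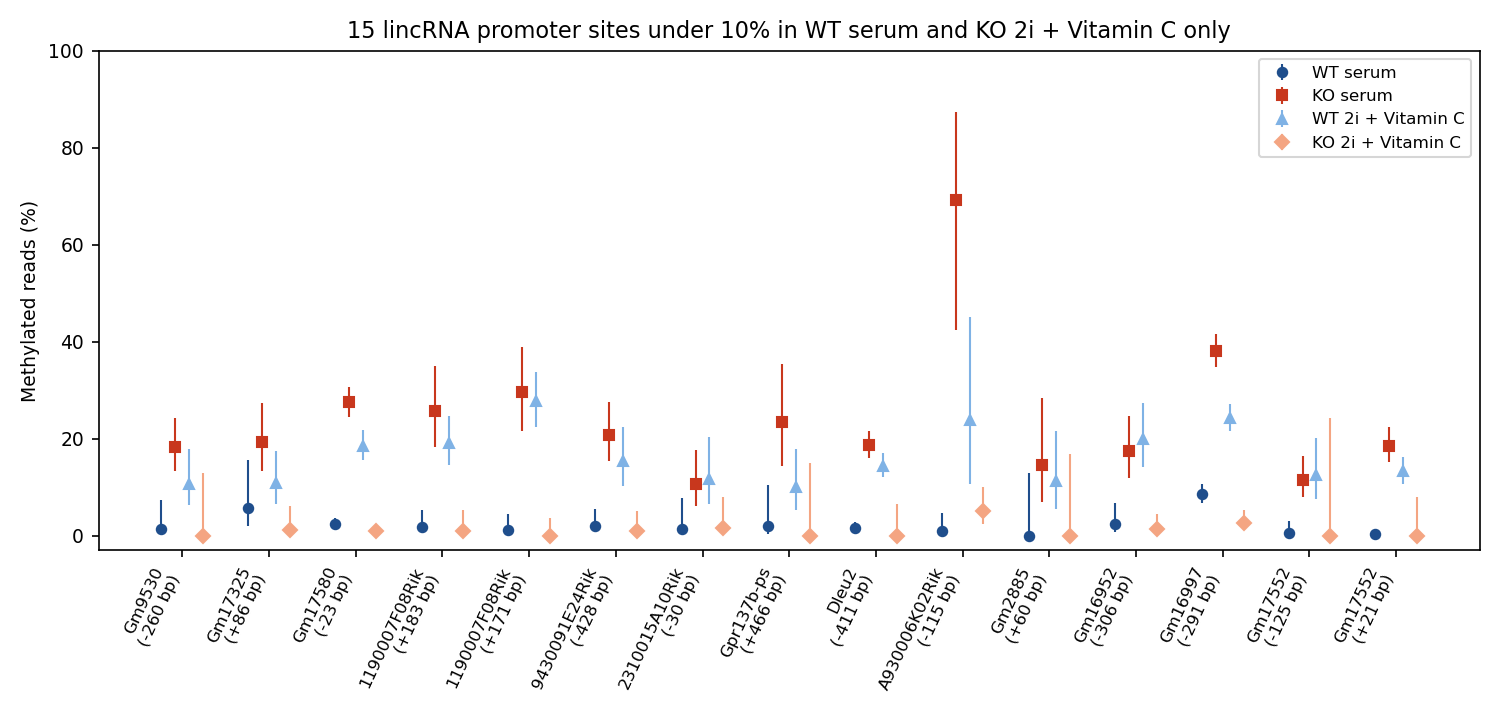
Methylated reads (vertical axis, %, with 95% Wilson intervals) in the 4 libraries at the 15 sites under 10% in WT serum and KO 2i + Vitamin C and at 10% or more in the other 2 libraries, named by gene and distance from its 5′ end (horizontal axis). The medians of KO serum and WT 2i + Vitamin C are 19.3% and 14.4%, those of the other 2 libraries 1.63% and 0.909%.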

How the data were processed

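The data are 4 RRBS-seq libraries, 1 for each genotype and medium, used as the authors deposited them. The authors trimmed paired reads with Trim Galore in its RRBS mode, mapped them to mm9 with Bismark and summed both strands of each CpG dyad. The deposited values are counts of all reads and of methylated reads per dyad, and the methylated fraction, which was recomputed here from the counts. End repair at MspI sites, which trimming is meant to remove, and incomplete bisulfite conversion can shift low values.

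Sites repeated in the second table of a file were left out. Gene 5′ ends came from GENCODE vM1, sequences from mm9, and biotypes from RefSeq by symbol or synonym. Each site was tested with a two-sided Fisher's exact test on the reads, with Benjamini-Hochberg adjustment over 400195 sites (Python 3.11.15, numba 0.67.0, scipy 1.17.1). The test was checked on simulated reads. Lost and gained needed an adjusted p under 0.05 and 20 percentage points. Promoters with 3 or more sites were compared by the mean over sites, with no test. Counting intervals are at 95%, and those of single sites are Wilson intervals. Reads carry no molecular identifiers, so intervals and upper limits (3 counts of the reads) cover counting error only. Named genes were those of the fixed lists, the 5 lowest and 5 highest promoters by KO minus WT in each medium, the 5 highest in WT in 2i + Vitamin C and the 5 with the largest fall in each genotype. Sites named for a pattern of libraries were chosen after their values were seen. The members and lists were chosen with earlier results of these data known. Alternatives covered coverage, windows, distances, weights, thresholds and thinning of reads. Sites on sex chromosomes were left out.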

Additional observations from a re-analysis of the deposited data

Results flagged for a closer look

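Mean methylation of the lincRNA promoter sites was higher in KO than in WT cells in serum (difference 1.17 percentage points) and lower in 2i + Vitamin C (difference -1.05 points), 1 library per group. Opposite directions drew attention here, and the difference between the media was not tested. Protein-coding promoters showed the same directions, at 1.34 and -0.992 points. All 400195 sites did as well, at 3.12 and -1.74 points, so the directions are not particular to promoters.

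The promoter of 1190007F08Rik, listed by RefSeq as the protein-coding gene Smim1, moved in the same opposite way, with KO minus WT at 11.2 points in serum and -11.2 points in 2i + Vitamin C. This difference was not tested either. It rests on 2 of its 5 sites, 171 and 183 bp after the 5′ end, which in serum had 163 reads in WT and 101 to 105 in KO cells.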

How the results depend on the processing

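No mean difference of the lincRNA promoter sites changed direction under any alternative, and with 1 library per group these values carry no replicate check. Values that moved beyond counting error, or by over 1.5 times for counts, are given here. The WT and KO changes between media, in that order, were -1.44 and -3.83 percentage points with at least 20 reads, -2.14 and -4.40 with at least 5, -5.75 and -8.41 with each promoter weighted equally, -0.527 and -2.81 with pooled reads, and -2.16 and -4.47 beyond 10 kb from protein-coding 5′ ends. Beyond 2 kb from protein-coding transcript 5′ ends, an alternative added after seeing the data, the KO value was -4.36. KO minus WT in serum was 1.38 with at least 20 reads and 1.37 with equal weights. In 2i + Vitamin C it was -1.19 with at least 5 reads, -1.29 with equal weights, -1.27 with pooled reads and -1.22 beyond 10 kb.

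For KO against WT, lost sites numbered 14 in serum and 18 in 2i + Vitamin C without the adjusted p, 13 and 10 at 10 points, 2 and 3 with thinned reads, 2 and 1 with a 250 bp window, and 2 and 2 without Airn (added after seeing the data). Serum had 12 with at least 5 reads, and 2i + Vitamin C 3 at 30 points. Gained sites in serum numbered 21 without the adjusted p, 22 at 10 points, 2 at 30 points, 7 with thinned reads and 5 with a 250 bp window. In 2i + Vitamin C they numbered 4 without the adjusted p and 1 at 10 points. Between media, lost sites in WT numbered 39 with at least 20 reads, 32 with thinned reads, 108 at 10 points and 41 at 30 points, and in KO 59 at 30 points. Gained sites in WT numbered 1 with at least 20 reads, with thinned reads and without RefSeq protein-coding genes (added after seeing the data), 10 at 10 points and 0 at 30 points. In KO they numbered 0 with at least 20 reads and with thinned reads, and 2 at 10 points. The cause of these shifts was not tested beyond the fewer sites or reads that an alternative leaves. Shares of all sites were not counted under these alternatives. Coverage limited single sites most in KO cells in 2i + Vitamin C, at a median of 47 reads.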

Other observations

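The promoter of 9430037G07Rik, which shares its 9 sites with Gm17683, had like means in both genotypes in 2i + Vitamin C. It was at 20.3% in WT serum and 28.5% in KO serum and at 15.0% and 14.7% in 2i + Vitamin C, and was named after its values were seen. Of its 9 sites, 3 were called lost between the media in KO cells. Among promoters at 20% or more in any library, 11 of 19 were higher and 8 lower in KO than in WT cells in serum. For 2i + Vitamin C, 17 of the 19 were lower and 2 higher in KO cells, Nespas and Gm17643. The 19 were chosen by these same means. Over all 159 promoters, 121 were higher and 38 lower in KO cells in serum. In 2i + Vitamin C 29 were higher and 130 lower.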
